A study of Mus musculus with 4 samples.

Results

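Cyclic AMP signaling was examined through 10 genes of the mouse eye, namely 5 adenylate cyclases (Adcy1, Adcy2, Adcy5, Adcy6 and Adcy9), the phosphodiesterases Pde4b and Pde4d, the protein kinase A subunit Prkaca, and the transcription factors Creb1 and Crem. They were taken by gene symbol from the table of 22863 rows that the authors deposited. Because Pde4d is listed under 2 Ensembl identifiers, the 10 symbols correspond to 11 rows. All 11 rows passed the filter on low values, which kept rows reaching 10 in 2 or more samples, as did 17784 rows of the whole table. RNA-seq compared eyes from objective day with eyes from subjective day, to ask what light during the preceding morning does to expression at the same clock hour. The mice were C3H/f+/+, a strain that makes melatonin and is free of the Pde6b mutation of the original C3H line. Subjective day mice were kept in darkness for 18 hours and examined at circadian time 6, although another passage of the study's text gives a longer time for this group. Objective day mice had seen light in the morning, were dark-adapted for 1 hour, and were examined at zeitgeber time 6. Each condition had 2 samples, and each sample pooled 4 eyes of a female and a male, without the lens and anterior eye, so that retina, RPE, choroid and posterior sclera were measured together. The age of these mice is not given in the sources used here. Because the tissue is bulk, fewer cells of a type and less RNA per cell cannot be told apart.

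Adenylate cyclases make cyclic AMP from ATP, with stimulatory G proteins raising and inhibitory G proteins lowering their activity. Phosphodiesterases degrade it. Cyclic AMP releases the catalytic subunits of protein kinase A (PKA), which phosphorylate many substrates, among them CREB, a transcription factor bound at cyclic AMP response elements. In the retina, cyclic AMP is high in photoreceptors in darkness and is lowered by dopamine and light, and it governs melatonin synthesis, gap junction coupling and photoreceptor phosphoproteins.

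The response element that CREB and CREM bind, TGACGTCA, and its half-site TGACG were searched on both strands in the 250 bases upstream of the transcription start sites listed by RefSeq for GRCm38.p6. Of the 10 symbols, 8 were matched, with 12 start sites, and Adcy6 and Crem were not. None of the 12 windows held the full element, which 1.55% of all 32851 windows held. The half-site, which is part of the full element, was in 3 of the 12 windows, belonging to Adcy9, Pde4b and Prkaca, compared with 17.8% of all windows. Counted by gene, 3 of the 8 held it (37.5%), beside 35.5% of the 76 pathway genes with a window and 19.8% of all genes. The half-sites of Adcy9 and Prkaca are shown as the places in these windows where the letters occur. The windows of Adcy1, Adcy2, Adcy5, Creb1 and Pde4d held none. Among the other pathway genes, both genes that passed the test below (Fos, Akap11, Pde8a and Prkacb) and genes that did not (such as Dusp1 and Per1) held a half-site. Of the 99 pathway symbols only 76 had a window. Egr1 and Vgf, which also passed, had none and were not searched. Each run is written 5′ to 3′ on the strand of its gene, with the half-site in capitals, as TGACG or as its reverse complement CGTCA.
Adcy9, chr16:4420499-4420542, minus strand: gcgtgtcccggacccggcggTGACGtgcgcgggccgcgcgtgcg
Prkaca, chr8:83972838-83972882, plus strand: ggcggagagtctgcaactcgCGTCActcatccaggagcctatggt
Prkaca, chr8:83972952-83972977, plus strand: tgggcggtgggctgcgggggCGTCAc
A match describes letters in a window and is not evidence of binding. The half-site of Pde4b lies within an exon of another transcript of that gene in GENCODE M21, and its sequence is not printed.

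Adcy1 was higher and Creb1 was lower in objective day, and the other 9 rows did not pass the test. Adcy1 rose 1.39-fold and Creb1 fell to 0.731 of its subjective day level. The deposited values, called adjusted counts here, have decimals and nearly equal totals in every library, and were read as counts per gene that the authors scaled to a common library size. They were compared on a log2(value + 1) scale with limma, across all 17784 rows, with Benjamini-Hochberg adjustment. At an adjusted p under 0.05, 2 of the 11 rows were called, against 8.51% of all rows tested, of which 1.06% were higher and 7.45% were lower in objective day. Over the 11 rows the log2 fold change ran from -0.45 to 0.47 with a median of 0.031, beside 0.015 for all rows tested. The groups did not overlap in 5 of the 11 rows, against 56.1% of all rows tested. Of these 5, Adcy1, Adcy5 and Prkaca were higher in objective day, against 27.9% of all rows, and Creb1 and the second Pde4d row were lower, against 28.2%. The smallest p that an exact two-sided permutation test allows for 2 samples against 2 is 0.333, and the calls therefore depend on the spread that limma pools over genes. When limma's variance prior did not follow the mean expression, 0 rows passed in the whole table, with 3586 at an unadjusted p under 0.05, and the adjusted p was 0.126 for Adcy1 and 0.139 for Creb1.

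**Figure D1:**
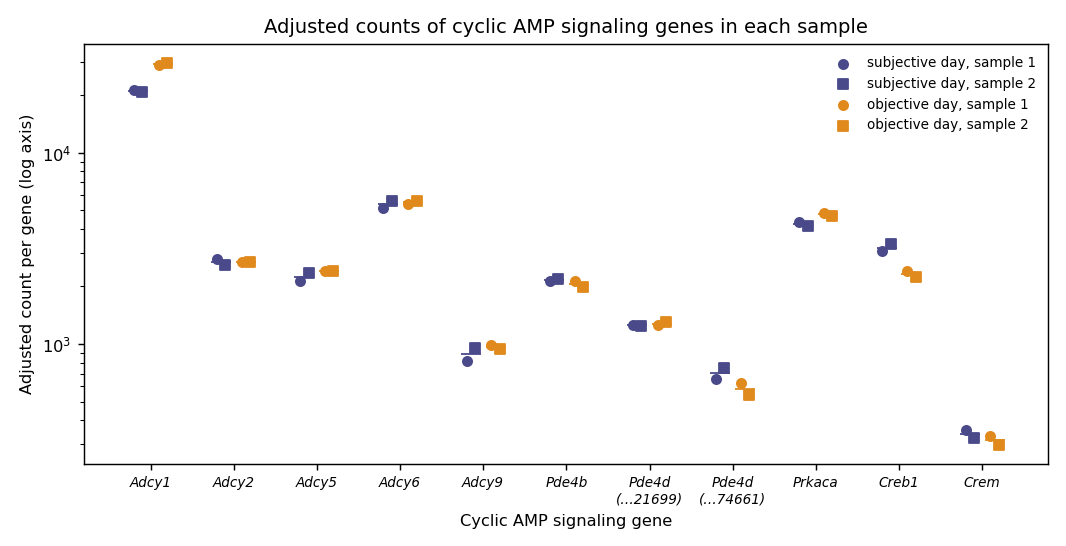
Adjusted counts (log axis) of the 11 rows in each of the 4 samples, with subjective day in blue, objective day in orange, circles for samples numbered 1, squares for samples numbered 2, and short lines for the group means. Adcy1 is at 20741 to 21337 in subjective day and 28926 to 29474 in objective day, Creb1 shows the opposite order, and most other genes have nearly equal groups.

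The cyclases are the enzymes that make the second messenger, and Adcy1 is the calcium- and calmodulin-stimulated form found in neurons and photoreceptors. Adcy1 (ENSMUSG00000020431) lies at chr11:7063489-7178506 (GRCm38, plus strand), with no other annotated exon over its own. Its adjusted counts were 21337 and 20741 in the subjective day samples, against 28926 and 29474 in the objective day samples. Both objective day samples were thus above both subjective day samples, by far more than the difference within either condition. The log2 fold change was 0.47 (standard error 0.072, 95% interval 0.30 to 0.64, limma adjusted p = 0.0101). The adjusted p rose to 0.0567 without the first objective day sample and to 0.0731 without the second, with log2 fold changes of 0.49 and 0.46. The longest Adcy1 transcript has a GC content of 52.6%.

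Transcript GC content moved with the fold change across the whole table, with a Spearman correlation of 0.58 over 17536 rows, which are not independent replicates. Over the 10 rows of known GC content among the cyclic AMP genes, which share the same 4 libraries, it was 0.78. As an alternative, the trend of every sample with GC content was subtracted after local regression, a correction that takes with it any biological difference following GC content. With the trend removed, the log2 fold change of Adcy1 was 0.39 with an adjusted p of 0.0597 by limma, which missed the threshold.

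Adcy2 and Adcy5 are calcium-independent and calcium-inhibited cyclases, respectively. Adcy2 had adjusted counts of 2778 and 2590 in the subjective day samples, against 2674 and 2693 in the objective day samples, with the objective day samples between the subjective day samples. Its log2 fold change was 0.00096 (95% interval -0.15 to 0.15). Adcy5 had 2149 and 2344 in the subjective day samples, against 2415 and 2411 in the objective day samples. The groups of Adcy5 did not overlap, but the gap was smaller than the difference between its subjective day samples, and its log2 fold change of 0.10 (95% interval -0.051 to 0.26) did not pass the test (limma, adjusted p = 0.369).

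Adcy6 is the other calcium-inhibited cyclase, and Adcy9 is a broadly expressed form with little response to forskolin. Adcy6 had 5138 and 5632 in the subjective day samples, against 5383 and 5632 in the objective day samples, and its groups overlapped. Adcy9 had 812 and 958 in the subjective day samples, against 990 and 941 in the objective day samples, again with overlap. Their log2 fold changes were 0.034 (95% interval -0.13 to 0.19) and 0.13 (95% interval -0.091 to 0.35). After removal of the GC trend, the log2 fold changes of Adcy2, Adcy5, Adcy6 and Adcy9 lay between -0.073 and 0.019. In GENCODE M21, exons of Adcy2 and Adcy6 overlap exons of predicted genes on the opposite strand, and the strand setting of the counting is not given in the sources used here, so these 2 values are uncertain. Of the other 5 cyclases, all were tested and none passed. The smallest adjusted p was 0.198 from limma's test, for Adcy4, whose adjusted counts were 115 and 95.6 in the subjective day samples, against 131 and 143 in the objective day samples. Adcy10, the bicarbonate-sensitive soluble cyclase, was near the filter, with a lowest value of 4.59 and a highest of 16.4.

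The type 4 phosphodiesterases are specific for cyclic AMP, and each is expressed from several promoters as long and short forms that a count per gene does not separate. Pde4b had adjusted counts of 2132 and 2194 in the subjective day samples, against 2132 and 1989 in the objective day samples, and its log2 fold change was -0.071 (95% interval -0.22 to 0.081, limma adjusted p = 0.54). The groups of Pde4b met at the same value. Pde4d under ENSMUSG00000021699, at chr13:108449948-109953461 (GRCm38, plus strand), had 1260 and 1247 in the subjective day samples, against 1257 and 1304 in the objective day samples, with a log2 fold change of 0.031 (95% interval -0.12 to 0.18). Pde4d under ENSMUSG00000074661, an identifier that GENCODE M21 does not list, had 660 and 748 in the subjective day samples, against 627 and 539 in the objective day samples. Here both objective day samples were below both subjective day samples, yet the log2 fold change of -0.27 (95% interval -0.52 to -0.025) did not pass after adjustment (limma, adjusted p = 0.16). Its 95% interval is not adjusted for the number of rows tested. How reads were divided between the 2 identifiers is not known, so both values are uncertain. Their sums were 1920 and 1994 in the subjective day samples, against 1884 and 1843 in the objective day samples, a log2 ratio of group means of -0.071 on which no test was run.

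Of the other 14 cyclic AMP phosphodiesterases, including those that also degrade cyclic GMP, all were tested, 2 rose and 1 fell, where 1.06% of all rows tested were called higher and 7.45% lower. Pde10a, a dual-specificity enzyme best known from the striatum, had adjusted counts of 1002 and 1149 in the subjective day samples, against 1450 and 1454 in the objective day samples, a log2 fold change of 0.44 (limma, adjusted p = 0.0204). Pde2a, which cyclic GMP stimulates, had 562 and 543 in the subjective day samples, against 694 and 739 in the objective day samples, a log2 fold change of 0.37 (adjusted p = 0.0331). Pde8a, a high-affinity enzyme for cyclic AMP, had 2503 and 2905 in the subjective day samples, against 2072 and 2055 in the objective day samples, a log2 fold change of -0.39 (adjusted p = 0.0292). None of the 3 passed without either of the objective day samples, where the largest adjusted p was 0.083 for Pde10a, 0.226 for Pde2a and 0.112 for Pde8a, and Pde2a also did not pass without the second subjective day sample (adjusted p = 0.0621). Pde10a, with the GC trend removed, kept its call (log2 fold change 0.46, limma adjusted p = 0.0395), whereas Pde2a (0.27, adjusted p = 0.181) and Pde8a (-0.38, adjusted p = 0.0698) did not. Under the same removal, Pde3a (0.44, adjusted p = 0.0268) and Pde7b (0.55, adjusted p = 0.0379) passed, having had adjusted p values of 0.0778 and 0.0994 before it. These 2 were named after their values were seen.

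PKA is a tetramer of regulatory and catalytic subunits, and Prkaca encodes its catalytic subunit alpha. Prkaca had adjusted counts of 4330 and 4141 in the subjective day samples, against 4871 and 4672 in the objective day samples. Both objective day samples were above both subjective day samples. The log2 fold change was 0.17 (95% interval 0.030 to 0.31), which did not pass after adjustment (limma, adjusted p = 0.131), and it was 0.073 with the GC trend removed. A fit that also took the sample numbers as a block called Prkaca (adjusted p = 0.0317 from limma), along with 20.3% of all rows.

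Of the other 8 genes of PKA subunits and inhibitors, 3 fell and none rose, where 7.45% of all rows tested were called lower and 1.06% higher. Prkacb, the catalytic subunit beta, had 7748 and 8051 in the subjective day samples, against 6382 and 6091 in the objective day samples, and its log2 fold change was -0.34 (limma, adjusted p = 0.0182). The protein kinase inhibitors Pkia and Pkib encode small proteins that bind and silence the free catalytic subunit. Pkia had 2726 and 2873 in the subjective day samples, against 1632 and 1712 in the objective day samples, a log2 fold change of -0.74 (adjusted p = 0.00554). Pkib had 285 and 335 in the subjective day samples, against 181 and 189 in the objective day samples, also at a log2 fold change of -0.74 (adjusted p = 0.0152). Pkig, the third inhibitor gene, had 2317 and 2097 in the subjective day samples, against 2584 and 2491 in the objective day samples, with a log2 fold change of 0.20 that did not pass (adjusted p = 0.125). The calls of Pkia held with each sample left out, whereas Pkib did not pass without the first objective day sample (adjusted p = 0.0561), and Prkacb did not pass without the first (0.0756) or the second (0.153). The transcripts of Pkia and Pkib have GC contents of 39.1% and 39.4%, among the lowest of the pathway, and that of Prkacb has 45.4%. Removing the GC trend left log2 fold changes of -0.26, -0.28 and -0.23, and none of the 3 passed (limma adjusted p = 0.12, 0.351 and 0.172). The 4 regulatory subunit genes had log2 fold changes from -0.36 for Prkar2b to 0.026 for Prkar1b and did not pass.

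Creb1 encodes CREB, the transcription factor that PKA activates, and Crem encodes activators and, from an internal promoter, the ICER repressors that a count per gene does not separate. Creb1 (ENSMUSG00000025958) lies at chr1:64532645-64604548 (GRCm38, plus strand), with no other annotated exon over its own. Its adjusted counts were 3057 and 3316 in the subjective day samples, against 2420 and 2234 in the objective day samples. The groups were separated by more than the difference within either condition. The log2 fold change was -0.45 (standard error 0.071, 95% interval -0.62 to -0.29, limma adjusted p = 0.0114). Without the second objective day sample it was -0.40 with an adjusted p of 0.0663. The longest Creb1 transcript has a GC content of 39.6%, the lowest of the 10 rows of known GC content. With the GC trend removed, its log2 fold change was -0.0067 with an adjusted p of 0.98, so that the fall of Creb1 was as large as the trend at its GC content.

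Crem was the least abundant of the 10 symbols, with adjusted counts of 354 and 324 in the subjective day samples, against 332 and 298 in the objective day samples. The groups overlapped, and the log2 fold change was -0.11 (95% interval -0.36 to 0.15, limma adjusted p = 0.592). After the GC trend was removed its sign turned, to 0.11 (adjusted p = 0.762). A predicted gene on the opposite strand shares exonic bases with Crem, so its value is uncertain as well. The other 6 genes of this list, Atf1, the coactivators Crtc1, Crtc2, Crtc3, Crebbp and Ep300, had log2 fold changes from 0.062 to 0.24, and none passed. The smallest adjusted p among them was 0.0828 for Crtc2, whose adjusted counts were 1871 and 1777 in the subjective day samples, against 2240 and 2061 in the objective day samples.

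**Figure D2:**
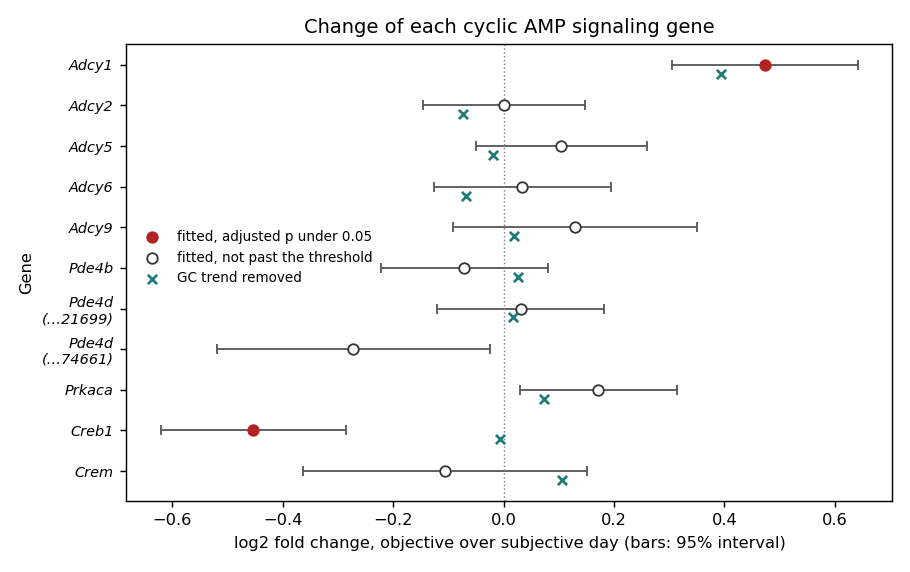
Log2 fold change of each row, objective over subjective day, with the 95% interval from limma as bars, filled circles for an adjusted p under 0.05, open circles otherwise, and crosses for the value with each sample's GC trend removed. Adcy1 (0.47) and Creb1 (-0.45) stand at the ends, and the cross of Creb1 lies at -0.0067 while that of Adcy1 stays at 0.39. The second Pde4d row has no cross because its GC content is not known.

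Levels were compared between genes per kilobase of annotated exon in GENCODE M21, as adjusted counts averaged over the 4 samples. Over both conditions together, Adcy1 stood at 2006 per kilobase, followed by Prkaca at 1810, Adcy6 at 803, Adcy2 at 637 and Adcy5 at 324. Creb1 (201), Pde4b (199.96), Adcy9 (178), Pde4d under ENSMUSG00000021699 (106) and Crem (55.5) followed. Within the conditions the order differed for neighbours of Adcy1 and Creb1. In subjective day the ranges of Adcy1 (1656 to 1704 per kilobase) and Prkaca (1664 to 1740) overlapped, with Prkaca the higher in both samples, whereas in objective day Adcy1 (2310 to 2354) was above Prkaca (1878 to 1958). Creb1 (222 to 241) was above Pde4b (202 to 208) in subjective day and, at 163 to 176, below Pde4b (188 to 202) in objective day. Adcy9 was below Pde4b in subjective day (156 to 184), and in objective day its range of 181 to 190 overlapped that of Pde4b and was above that of Creb1. These orders were not tested. Per kilobase of the longest transcript, the first 4 places and the last stayed the same, while Pde4b moved from the seventh place to the fifth. Adcy1 was the cyclase with the highest level per length of the 5 in each of the 4 samples.

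CREB target genes were examined through 14 genes known to be induced by cyclic AMP or calcium, of which 3 rose and none fell, where 1.06% of all rows were called higher and 7.45% lower. These genes are shared with neuronal activity and light responses in general. The list was chosen with earlier results of these data known, so the count describes the list and is not a test of it. Egr1, an immediate early transcription factor, had adjusted counts of 375 and 512 in the subjective day samples, against 2163 and 2006 in the objective day samples, a log2 fold change of 2.25 (limma, adjusted p = 0.00531). Vgf, which encodes a secreted neuropeptide precursor, had 584 and 496 in the subjective day samples, against 1459 and 1303 in the objective day samples, a log2 fold change of 1.36 (adjusted p = 0.00531). Fos, a subunit of the transcription factor AP-1, had 309 and 319 in the subjective day samples, against 527 and 536 in the objective day samples, a log2 fold change of 0.76 (adjusted p = 0.00558). All 3 kept their call with each sample left out, and with the GC trend removed their log2 fold changes were 2.13, 1.18 and 0.69. The other 11 targets did not pass. Nr4a1 was nearest to the threshold (log2 fold change 0.36, limma adjusted p = 0.0585), and the clock gene Per1 (0.12), the nuclear receptor Nr4a2 (-0.044), the kinase Sik1 (0.016) and the phosphatase Dusp1 (0.020) had small values. Aanat, the penultimate enzyme of melatonin synthesis, had 92.9 and 76.7 in the subjective day samples, against 102 and 103 in the objective day samples, with a log2 fold change of 0.28 (95% interval -0.13 to 0.69). Ppargc1a passed with the GC trend removed (0.38, adjusted p = 0.0468) but not without that step, and was named after its values were seen.

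Upstream of the cyclases, 7 G protein alpha subunits and 15 receptor genes were tested. Drd4, the dopamine receptor of photoreceptors that inhibits cyclase, had adjusted counts of 8684 and 8119 in the subjective day samples, against 6041 and 6243 in the objective day samples. Both objective day samples were below both subjective day samples, and Drd4 was the 1 receptor gene of the 15 that passed, a share near the 7.45% of all rows called lower, with a log2 fold change of -0.45 (limma, adjusted p = 0.00813). Its transcript has a GC content of 57.8%, on the side where the trend across genes runs upward, and with the trend removed the log2 fold change was -0.56 (adjusted p = 0.0139). The call of Drd4 held with each sample left out. The dopamine receptor genes Drd1a (-0.064), Drd2 (0.10) and Drd5 (0.059) and the melatonin receptor gene Mtnr1a (0.14, with a lowest value of 8.55 and a highest of 14.3) did not pass.

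Gnai1 and Gnai3, alpha subunits that inhibit cyclase, fell, and the other 5 alpha subunit genes did not pass, where 7.45% of all rows were called lower. Gnai1 had 864 and 963 in the subjective day samples, against 716 and 672 in the objective day samples, a log2 fold change of -0.39 (limma, adjusted p = 0.0329). Gnai3 had 1307 and 1231 in the subjective day samples, against 1061 and 1022 in the objective day samples, a log2 fold change of -0.28 (adjusted p = 0.0496). Gnai1 passed only without the first subjective day sample, and Gnai3 only without the second, when samples were left out in turn, with adjusted p values up to 0.179 and 0.272. Gnai3 also lost its call under quantile normalization (adjusted p = 0.0513) and with weaker filters on low values (0.0529 and 0.0569). With the GC trend removed, the log2 fold change was -0.15 for Gnai1 and 0.014 for Gnai3, and neither passed. Gnai2, another inhibitory alpha subunit gene, lay in the other direction and did not pass (log2 fold change 0.20, limma adjusted p = 0.129). It had 7307 and 6948 in the subjective day samples, against 8520 and 7827 in the objective day samples. Of the 7 genes, 3 had a log2 fold change above 0 and 4 below 0. Gnas, the stimulatory alpha subunit, had a log2 fold change of 0.11 (95% interval -0.075 to 0.29), and its count is uncertain because antisense genes overlap its exons.

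Of the 10 A-kinase anchoring protein genes tested, which tether PKA to organelles and receptors, Akap11 fell and the other 9 did not pass, a count near the 7.45% of all rows called lower. Akap11 had 9472 and 9665 in the subjective day samples, against 7510 and 7546 in the objective day samples, a log2 fold change of -0.35 (limma, adjusted p = 0.0151). It did not pass without the first or the second objective day sample (adjusted p = 0.11 and 0.107), and its value with the GC trend removed was -0.058 (adjusted p = 0.753). Akap2, with a highest value of 11.0, did not reach the filter. None of the 5 genes of other cyclic AMP effectors passed, neither the exchange factors Rapgef3 (0.11) and Rapgef4 (-0.098) nor the Popeye domain genes, among which Bves had the smallest adjusted p (log2 fold change -0.27, limma adjusted p = 0.223). Phosducin, a PKA substrate of photoreceptors encoded by Pdc, had adjusted counts of 62346 and 55478 in the subjective day samples, against 52415 and 45213 in the objective day samples, and it did not pass (log2 fold change -0.27, adjusted p = 0.185). Its sign turned to 0.31 with the GC trend removed. Ppp1r1b, the other substrate gene of that list, had a log2 fold change of 0.11.

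**Figure D3:**
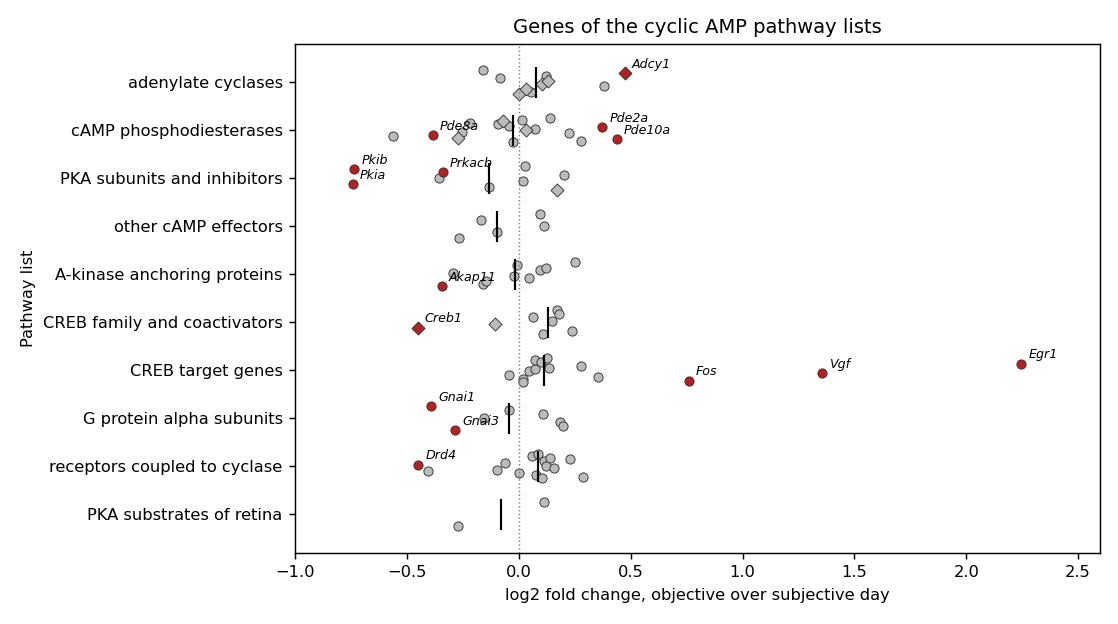
Log2 fold change, objective over subjective day, of each tested gene in 10 lists of the pathway, with diamonds for the 11 rows described first, circles for other genes, red for an adjusted p under 0.05 with the gene named, and a vertical line for the median of each list. Most genes lie near 0, and Egr1 (2.25), Vgf (1.36) and Fos (0.76) lie farthest to the right.

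Over all 10 lists, 97 rows were tested, including the 11 rows above, and 6 were called higher and 9 lower, against 1.06% and 7.45% of the whole table, so that the share called lower was near that of all rows. The median log2 fold change of the 97 rows was 0.052, beside 0.015 for all rows tested, and it was 0.012 with the GC trend removed. The 9 genes called lower had a median GC content of 41.9%, and the 6 called higher had 53.8%, beside 49.8% for all rows tested. Of these 15, 5 kept their call once the GC trend was removed, namely Egr1, Vgf, Fos, Pde10a and Drd4. In all, 8 of 96 rows were then called (7 higher, 1 lower), against 1.27% of the whole table (107 rows higher, 116 lower). When the sample numbers were also taken as a block, 10 of the 15 kept their call, Adcy1, Pde2a, Pde8a, Pkia and Prkacb being added to the 5 named above. In that fit 19 of the 96 rows were called, beside 1583 of 17536 rows of the whole table. The lists were chosen with earlier results known, so these counts describe the lists and are not a test of them. Without the first objective day sample 7 of the 97 rows were called, beside 736 of the whole table, and without the second 6, beside 664.

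**Figure D4:**
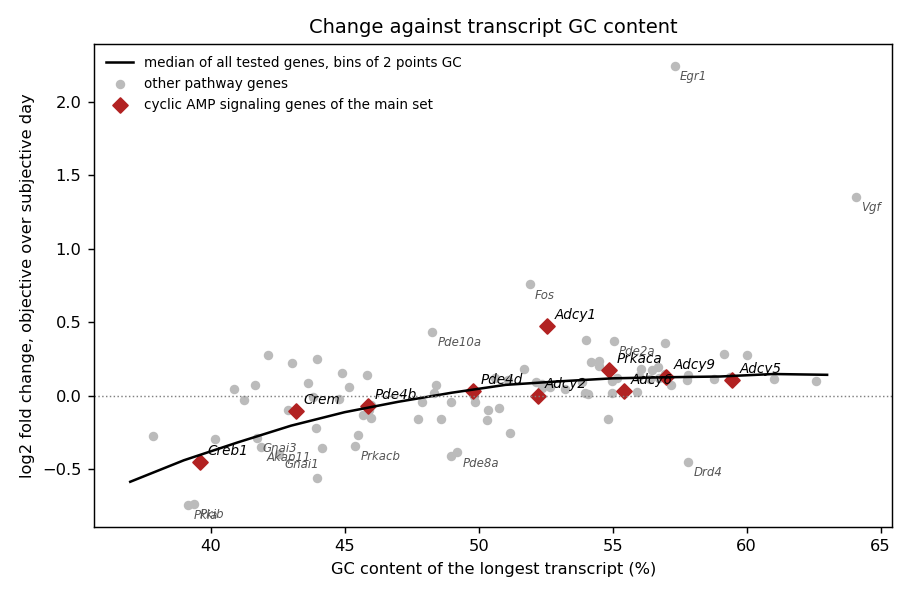
Log2 fold change, objective over subjective day, against the GC content of the longest transcript (%), for the cyclic AMP genes described first (red diamonds) and other pathway genes (grey), with a line for the median of all tested genes in bins of 2 points of GC content. Creb1 (39.6% GC) lies close to the line, Adcy1 (52.6% GC) and Pde10a lie above it, and Drd4 (57.8% GC) lies below it.

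Marker genes of the tissues present were examined beside these values. Rod, cone, bipolar, amacrine, ganglion cell, Müller glia and RPE markers were detected in every sample, except that 1 of the 4 RPE markers did not reach the filter and the lowest RPE value was 0. Summed over 4 genes, rod markers had adjusted counts of 806353 to 907688 in subjective day and 966862 to 1075535 in objective day, with none of the 4 called. Cone markers summed to 21240 to 23535 and 24030 to 25572, and bipolar markers to 30177 to 30352 and 32694 to 34056, again with none called. Amacrine (10220 to 10315 and 10430 to 10531) and ganglion cell markers (10007 to 11378 and 9535 to 10137) had none called, and Müller glia (93765 to 101805 and 90470 to 95033) and RPE markers (37081 to 45061 and 40114 to 43322) had 1 gene each called lower. Cornea markers fell in all 3 genes tested of 4, with sums of 9809 to 10217 in subjective day and 2751 to 5076 in objective day. Lens markers summed to 31178 in sample 1 and 4316 in sample 2 of subjective day. In objective day they summed to 39184 in sample 1 and 10613 in sample 2, and no lens marker was called. Blood markers ranged from 1228 to 1383 in subjective day and from 1931 to 2184 in objective day, with 1 of the 2 tested called higher. Muscle markers summed to 26123 to 34714 and 24589 to 29574. The part of these tissues in the changes of Adcy1, Creb1 and the other called genes was not tested.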

How the data were processed

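RNA-seq of 4 eye samples, 2 per condition, was analysed. Reads were aligned by the authors with TopHat2 2.0.9 and Bowtie2 2.1.0 to a mouse Ensembl annotation, counted with HTSeq and compared with edgeR, per the Methods and the submitters' processing notes. The authors deposited 1 signal per gene and sample, read here, from its decimals and nearly equal totals, as a count adjusted to a common library size, with totals of 33278417 to 35236783 that do not give the sequencing depth. Columns with the authors' own fold change, mean CPM and p-values were not used. The filter and strand setting of the authors are not given in the sources used here.

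Rows reaching 10 in 2 or more samples were compared as log2(value + 1) with limma 3.58.1 in R 4.3.3, with moderated variances following the mean and Benjamini-Hochberg adjustment over all rows tested. GC content and exon lengths came from GENCODE M21 (GRCm38, known for 98.6% of rows tested), and local regression used a span of 0.3. The script was tested on simulated data. Whether samples came from separate preparations beyond being described as biological replicates is not stated. The genes, lists and tests were chosen with earlier results of these data known. Genes were named by rule: the 10 symbols, and in each list every gene past the threshold or, where none passed, the gene with the smallest adjusted p; further genes are named to give values. Figures were drawn with matplotlib 3.10.9.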

Additional observations from a re-analysis of the deposited data

How the results depend on the processing

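Across the whole table, limma called 1514 rows (189 higher, 1325 lower), with 2 of the 11 cyclic AMP rows and 15 of the 97 pathway rows among them. Other pseudocounts, filters and the scaling by median ratios left these counts within 1.5 times, and quantile normalization gave 401 higher and 1211 lower. With a common variance prior the counts were 0, 0 and 0. In that fit 2 of the 11 and 22 of the 97 rows had an unadjusted p under 0.05, beside 3586 of all 17784 rows tested. The log2 fold changes of 0.47 for Adcy1 and -0.45 for Creb1 had limma adjusted p values of 0.126 and 0.139. With the GC trend removed by limma's fit on corrected values, 223 rows (107 higher, 116 lower), 0 of 10 and 8 of 96 rows were called. There, 1 of the 10 had an unadjusted p under 0.05, for which no share over all rows is given. Adcy1 (0.39) and Creb1 (-0.0067) did not pass.

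The 2 conditions share only sample numbers in the labels, and deviations of same-numbered samples had a correlation of 0.32 across genes. With the replicate number as a block, 3613 rows were called (1282 higher, 2331 lower). Among them were 31 pathway rows, which include all 15, and 3 of the 11 rows, Prkaca being added (0.17, limma adjusted p = 0.0317). With the block and the GC trend removed, 1583 rows were called (876 higher, 707 lower). They included 19 pathway rows and 1 of the 10 rows of known GC content, Adcy1, and Creb1 stayed at -0.0067. With each sample left out, a lone sample being assumed to vary like the other group, 664 to 2557 rows were called, 0 to 2 of the 11 rows and 6 to 19 pathway rows. Adcy1 ran from 0.45 to 0.49 and Creb1 from -0.51 to -0.39. Among the 11 rows and the called pathway genes, some directions turned. With the GC trend removed, with or without the block, Adcy2 was -0.073, Adcy5 -0.020, Adcy6 -0.068, Pde4b 0.026, Crem 0.11 and Gnai3 0.014, of which only Gnai3 had passed. Adcy2 was also -0.0022 with median ratios and ran from -0.050 to 0.052 with samples left out, and Adcy6 from -0.033 to 0.10. The cause of these turns was not tested. The median log2 fold change of the 11 rows, or of the 10 with a GC content where the GC trend was removed, moved by less than 0.084 in every alternative. That limit is the spread between replicates of each sample's median log2 level over the 11 rows, and not a spread of fold changes. With 2 samples per condition the precision is limited, and the sequencing depth is not known from these values.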
